A study of Mus musculus with 2 samples.

Results

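The cardiac myosin genes were followed through the peaks of open chromatin annotated to them in neonatal mouse hearts with and without Wtap in cardiomyocytes. The 7 genes were Myh6, Myh7, Myh7b, Myl2, Myl3, Myl4 and Myl7, taken by Ensembl gene ID, and 36 of the 83549 peaks were annotated to them. Accessibility had been measured by ATAC-seq, in which the transposase Tn5 inserts adapters into exposed DNA and the reads pile up over open sites. One library came from the pooled hearts of 7 Wtapflox/flox mice, which carry the floxed allele, and the other from those of 6 Wtap-CKO mice, in which Wtap is deleted in cardiomyocytes. All mice were 4 days old, and the Cre line that drives the deletion is not given in the sources used here. Wtap encodes an adaptor subunit of the nuclear complex that writes RNA N6-methyladenosine. Whole hearts were used, so cells that are not cardiomyocytes kept the gene in both pools. The Wtapflox/flox library held 9835753 reads in peaks and the Wtap-CKO library 9816384. With 1 library per genotype no difference had a replicate check and none was tested, so every difference is one between these libraries.

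Myosin is the motor of the thick filament of the sarcomere: a pair of heavy chains carries the ATPase heads that pull on actin, and each head binds an essential and a regulatory light chain. Myh6 encodes the fast alpha heavy chain, the main form of adult mouse atria and ventricles, and Myh7 the slow beta form, which dominates the fetal ventricle of the mouse and is replaced by alpha around birth. Myh7b encodes a further, ancient sarcomeric heavy chain. Myl2 and Myl3 encode the ventricular regulatory and essential light chains, Myl7 the atrial regulatory chain and Myl4 an essential chain of atria and fetal muscle. Each heavy chain gene also carries a microRNA in an intron, which is cut from the transcript of the host gene, so that the hosts described here and these microRNAs share transcripts. The mature sequences are shown, from RefSeq (GRCm38.p6), because they link the 3 heavy chain genes; capitals mark the seed, bases 2 to 8.
miR-208a-3p (Myh6): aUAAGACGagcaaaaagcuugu
miR-208b-3p (Myh7): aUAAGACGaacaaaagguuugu
miR-499-5p (Myh7b): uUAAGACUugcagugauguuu
The seed UAAGACG was the same in miR-208a-3p and miR-208b-3p, which shared 19 of 22 bases, and 6 of the 7 seed bases were shared with miR-499-5p. The microRNAs themselves were not measured by this assay.

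The sequences before the RefSeq starts of 5 of the genes follow. They set the 3 heavy chain genes beside a ventricular light chain gene (Myl3) and an atrial one (Myl7). A peak overlapped an annotated start of each of these 5, and also of Myl2 and Myl4, which are not shown. Each sequence is the 250 bases before the start, written in the direction of the gene. The coordinates are those of GRCm38.p6, which are not those of the peaks (GRCm39). The windows were not matched to the peaks, so a RefSeq start need not be the start that a peak overlaps. The motif counts below therefore describe the windows and not the open promoters of the 7 genes. Capitals mark matches, on either strand, to CATTCC (the core of the site of TEAD factors), the CArG box of serum response factor, the MEF2 site and TATAAA.
Myh6, chr14:54966608-54966857, minus strand: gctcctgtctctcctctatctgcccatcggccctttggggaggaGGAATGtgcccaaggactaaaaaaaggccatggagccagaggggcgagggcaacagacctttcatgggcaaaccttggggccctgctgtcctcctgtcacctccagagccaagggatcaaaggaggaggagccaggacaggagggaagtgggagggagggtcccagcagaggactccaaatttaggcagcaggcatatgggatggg
Myh7, chr14:54994627-54994876, minus strand: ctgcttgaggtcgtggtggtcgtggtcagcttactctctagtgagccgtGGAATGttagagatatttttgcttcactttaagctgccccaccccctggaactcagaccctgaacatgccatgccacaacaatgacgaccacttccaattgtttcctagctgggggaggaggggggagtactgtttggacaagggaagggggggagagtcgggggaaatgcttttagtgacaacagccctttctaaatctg
Myh7b, chr2:155610993-155611242, plus strand: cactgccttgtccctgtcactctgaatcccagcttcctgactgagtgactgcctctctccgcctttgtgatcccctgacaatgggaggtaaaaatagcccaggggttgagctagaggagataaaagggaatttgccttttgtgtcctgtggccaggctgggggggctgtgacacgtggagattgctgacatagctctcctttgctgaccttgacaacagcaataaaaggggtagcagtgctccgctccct
Myl3, chr9:110763428-110763677, plus strand: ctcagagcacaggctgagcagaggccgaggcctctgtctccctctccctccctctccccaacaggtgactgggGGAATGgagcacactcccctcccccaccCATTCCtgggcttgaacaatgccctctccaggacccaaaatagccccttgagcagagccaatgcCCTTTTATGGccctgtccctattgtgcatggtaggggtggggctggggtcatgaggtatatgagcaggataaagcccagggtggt
Myl7, chr11:5898783-5899032, minus strand: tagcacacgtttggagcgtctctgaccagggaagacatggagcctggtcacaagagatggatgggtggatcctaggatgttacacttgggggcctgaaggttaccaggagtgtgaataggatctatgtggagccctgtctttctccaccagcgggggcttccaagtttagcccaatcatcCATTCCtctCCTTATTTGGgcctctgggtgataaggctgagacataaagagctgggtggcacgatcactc
CATTCC was found on either strand in 4 of the 7 genes (Myh6, Myh7, Myl3 and Myl7), and in 12.6% of all 32851 RefSeq windows of this length. In Myh7 it lay 201 bases before RefSeq start 1, the one shown, and was absent from the window of start 2. The CArG box was found in Myl3, 85 bases before the start, and in Myl7, 61 bases before it, and in 1.47% of all windows. These light chain genes, one of each chamber, thus share both motifs. Whether the motifs bear on the reads of their peaks was not tested. GATAA, the core that GATA factors bind, was in 4 genes (Myh7b, Myl2, Myl3 and Myl7; 22.6% of windows), and TATAAA in 1, at a further RefSeq start of Myl2 (12.4%). AAGTG, a core bound by NKX2-5, was in 5 genes (40.7% of windows) and CANNTG, the E-box, in 6 (66.2%). No gene held the MEF2 site in its window (2.92% of windows). Motifs could overlap, and where RefSeq lists several starts (Myh7 and Myl2) every start was searched. A match is a run of letters and was not measured as a bound site.

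The heavy chain and ventricular light chain genes were less accessible in Wtap-CKO, and the atrial light chain genes were more accessible. Summed over their 15 peaks, the 3 heavy chain genes held 6441 reads in Wtapflox/flox and 5008 in Wtap-CKO, 22.1% fewer after scaling to the reads in peaks (log2 ratio -0.36, 95% counting interval -0.41 to -0.31). The 15 peaks of Myl2 and Myl3 held 5512 and 4551 reads, 17.3% fewer (-0.27, interval -0.33 to -0.22). The 6 peaks of Myl4 and Myl7 held 424 and 584, 1.38-fold more (0.46, interval 0.28 to 0.65). All 15 heavy chain peaks and 13 of 15 ventricular light chain peaks were lower in Wtap-CKO, and all 6 atrial light chain peaks were higher. A peak called in 1 library alone tends to be higher there, so its direction is partly fixed by the call. Among peaks called in both libraries, 11 of 11 heavy chain and 10 of 12 ventricular light chain peaks were lower (background 48%), and 5 of 5 atrial light chain peaks were higher (background 52%). Peaks of the same gene lie at 1 locus and come from the same 2 libraries. They are therefore not separate observations, and these counts rest on few genes. Of all peaks over the signal floor (the 25th percentile of mean signal), 49.1% were lower and 50.9% higher by any amount. The median log2 ratio was -0.27 over the 36 peaks and 0.00 over all 83549. Intervals here and below cover the error of counting reads and not the difference between animals or preparations. In a bulk sample, fewer cells of a type (or less atrial or ventricular tissue in a pool) and less open chromatin per cell cannot be told apart.

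**Figure D1:**
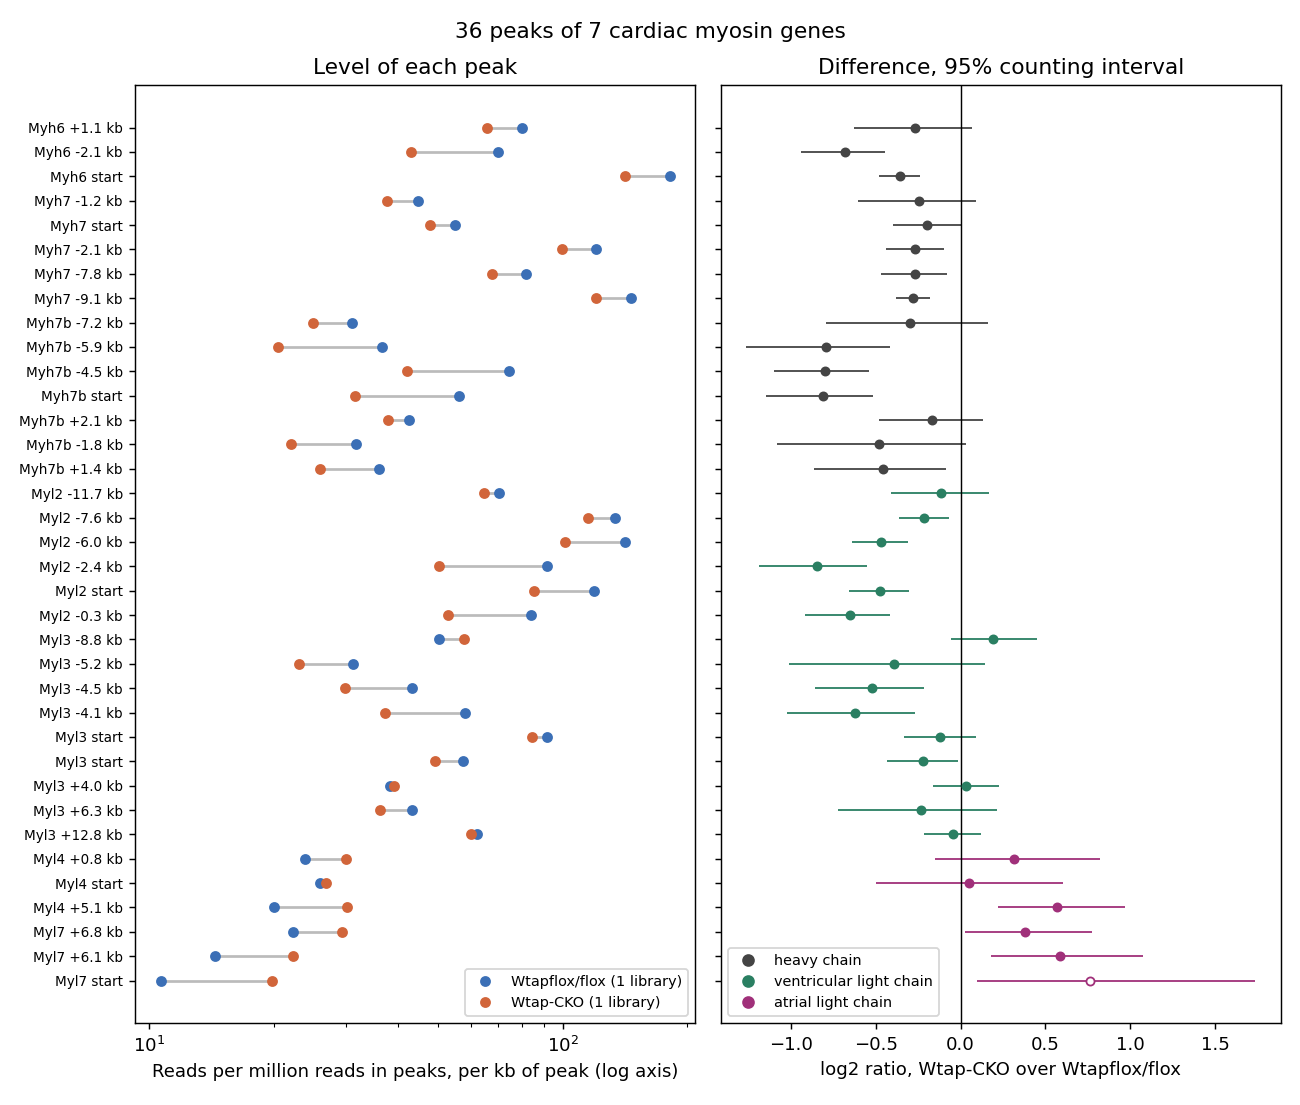
Left, level of each of the 36 peaks in the Wtapflox/flox (blue) and Wtap-CKO (orange) library, in reads scaled to the reads in all peaks (CPM) per kb of peak, on a log axis; right, log2 ratio with its 95% counting interval, coloured by class, with an open circle for the 1 peak under the signal floor. Labels give the distance from the nearest annotated transcript start, negative before it. All 15 heavy chain peaks lie left of 0 on the right and all 6 atrial light chain peaks lie right of it.

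These differences were small in size. Of the 36 peaks, 35 were over the floor, and 0 of these were 2-fold higher or 2-fold lower, against 3.5% and 1.45% of all peaks over the floor. At 1.5-fold, 7 of the 35 were lower (background 8.28%) and 1 was higher (background 12.3%). The 7 were 3 peaks of Myh7b, 2 of Myl2 and 1 each of Myh6 and Myl3, and the higher one belonged to Myl7. The counting interval lay below 0 for 17 of the 35 (background 18.3%) and above 0 for 3 (background 19.5%), and all 17 were heavy or ventricular light chain peaks. Peaks of these classes held more reads than most (the table's median was 64 in Wtapflox/flox), and more reads narrow the interval, so this background is of weaker peaks. Of the 30 heavy and ventricular light chain peaks, 7 had been called by the authors in Wtapflox/flox alone and 0 in Wtap-CKO alone, against 21.2% and 17.6% of all peaks. The share called in Wtapflox/flox alone was thus close to the background.

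The scaling moved the values down. In the authors' deposited table, whose log2 values have a median of -0.21 over all peaks, the ratios of the 36 peaks differed from these by -0.25 to -0.11 (median -0.22), least at the Myl7 start. By the authors' RPM, 30 of 30 heavy and ventricular light chain peaks were lower and 5 of 6 atrial light chain peaks higher, with summed log2 ratios of -0.53 and 0.24. The direction of Myl4 and Myl7 summed therefore did not depend on the scaling.

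Myh6 had the most accessible start of the genes. Its start peak (chromosome 14, 55203908 to 55204619, GRCm39, gene ENSMUSG00000040752) held 1272 reads in Wtapflox/flox and 991 in Wtap-CKO. Scaled to the reads in all peaks (CPM), that was a level of 182 and 142 CPM per kb of peak, higher than 99.95% and 99.9% of all peaks. The log2 ratio was -0.36 (interval -0.48 to -0.24). The other 2 peaks lay in the body of the gene, near the start of a short transcript. The one at -2085 bp held 361 and 223 reads (log2 ratio -0.68, interval -0.94 to -0.45), and the one at 1076 bp held 157 and 129 (-0.27, interval -0.63 to 0.06). Both had been called in Wtapflox/flox alone. Summed, Myh6 held 1790 and 1343 reads, a log2 ratio of -0.41 (interval -0.51 to -0.31). A strong peak just upstream of the start, annotated to another gene and given below, is not in this sum.

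Myh7 differed by nearly the same amount at every peak. The start peak (chromosome 14, 55231777 to 55232586, gene ENSMUSG00000053093) held 438 and 381 reads (log2 ratio -0.20, interval -0.40 to 0.00). Its level was 54.98 and 47.9 CPM per kb, well under that of the Myh6 start. The strongest peak of the gene lay in intergenic DNA at -9125 bp (55241208 to 55242463), with 1808 and 1484 reads (-0.28, interval -0.38 to -0.18). Most reads of Myh7 thus lay upstream of its start, since peaks at -2058 bp (616 and 510 reads) and -7760 bp (489 and 404 reads) were also stronger than the start peak. Their log2 ratios were both -0.27. A weaker peak in the gene body, at -1166 bp from a shorter transcript, held 153 and 128 (-0.25, interval -0.60 to 0.09). The 5 ratios spanned only -0.28 to -0.20, and the sum of 3504 and 2907 reads gave -0.27 (interval -0.34 to -0.20).

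By the annotation of the peaks, the adult heavy chain gene took no larger share of reads against the fetal one in Wtap-CKO. Myh6 took 33.8% of the reads of the Myh6 and Myh7 peaks in Wtapflox/flox (1790 of 5294, Clopper-Pearson 95% interval 32.5 to 35.1) and 31.6% in Wtap-CKO (1343 of 4250, interval 30.2 to 33.0). This share needs no scaling between libraries, and the difference was -2.21 percentage points (Newcombe interval -4.10 to -0.32). At the start peaks alone Myh6 took 74.4% (72.2 to 76.4) and 72.2% (69.8 to 74.6), a difference of -2.16 points whose interval (-5.31 to 0.98) spans 0. Of the summed peaks, 2 of the 3 of Myh6 and 1 of the 5 of Myh7 had been called in Wtapflox/flox alone. With only peaks called in both libraries the difference was -1.23 points, and its interval (-3.13 to 0.68) also spans 0. The share also rests on which gene a peak is given to. The starts of both genes lie 27.985 kb apart (Myh6 at 55204098, Myh7 at 55232083). A strong peak between them (55205319 to 55206328) lies just upstream of the Myh6 start and far from that of Myh7. The peak was annotated to another gene, ENSMUSG00000097652, whose start it overlapped. It held 1485 reads in Wtapflox/flox and 1690 in Wtap-CKO, a log2 ratio of 0.19 (interval 0.09 to 0.29), opposite in sign to each of the 8 peaks of Myh6 and Myh7. In the authors' deposited table its log2 ratio was -0.03, so its sign depended on the scaling, while it stayed above all 8. Given to Myh6, the strong peak turns the difference in share to 2.75 points (interval 1.01 to 4.49); given to Myh7, the difference is -3.80 points. A weaker peak between the starts (55216016 to 55216296, ENSMUSG00000115610) held 98 and 59 reads (-0.68). The RefSeq gene table (GRCm38.p6) places Mhrt, a long noncoding RNA antisense to Myh7, between the starts of Myh6 and Myh7, but the files do not pair that name with the ID.

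**Figure D2:**
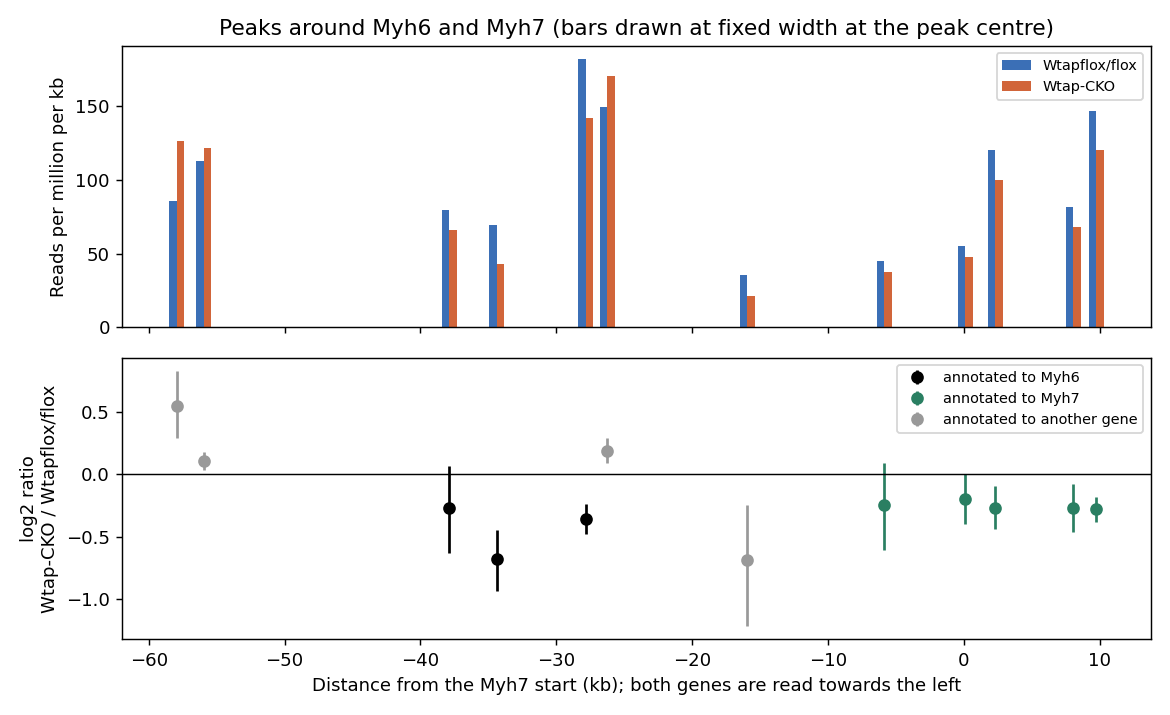
Peaks around Myh6 and Myh7 by distance from the Myh7 start in kb. Top, CPM per kb of peak in each library; bottom, log2 ratio with 95% counting interval. The 3 Myh6 and 5 Myh7 peaks lie below 0. The strong peak just upstream of the Myh6 start, annotated to another gene, lies above 0 at 0.19 (-0.03 by the authors' RPM).

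Myh7b was the heavy chain gene with the lowest ratio and the weakest peaks. Its start peak (chromosome 2, 155452882 to 155453311, gene ENSMUSG00000074652) held 237 reads in Wtapflox/flox and 133 in Wtap-CKO, a log2 ratio of -0.81 (interval -1.15 to -0.52). Its level was higher than 94.0% of all peaks in Wtapflox/flox and 77.5% in Wtap-CKO. The peak upstream at -4460 bp, the strongest of the gene, held 295 and 167 reads (log2 ratio -0.80, interval -1.10 to -0.54), and the one at -5888 bp held 134 and 75 (-0.79, interval -1.26 to -0.42). The start and these upstream peaks were the 3 that passed 1.5-fold. The remaining 4, from -7185 bp upstream to just past the gene end, held 48 to 191 reads, with ratios from -0.48 to -0.17. Summed, 1147 and 758 reads gave -0.59 (interval -0.73 to -0.46), and 3.69% of the 25302 genes over the floor had a lower sum. Myh7b took 17.8% (16.9 to 18.8) of the heavy chain reads in Wtapflox/flox and 15.1% (14.2 to 16.2) in Wtap-CKO.

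Myl2, the ventricular regulatory light chain gene, was lower at its start and over a run of upstream peaks. The start peak (chromosome 5, 122238685 to 122239220, gene ENSMUSG00000013936) held 628 reads in Wtapflox/flox and 450 in Wtap-CKO, which gave a log2 ratio of -0.47 (interval -0.66 to -0.30). The next peak, inside the gene and at -316 bp from the start of a shorter transcript, held 340 and 214 (-0.65, interval -0.92 to -0.41). At -2413 bp a peak called in Wtapflox/flox alone held 236 and 129, a log2 ratio of -0.84 (interval -1.19 to -0.55), the lowest of the 36. Farther upstream the difference was smaller at each step. The peak at -5999 bp held 724 and 520 reads (-0.47), the one at -7645 bp, with the most reads of the gene, 797 and 685 (-0.21, interval -0.37 to -0.07), and the one at -11694 bp 209 and 192 (-0.12, interval -0.41 to 0.17). Summed, 2934 and 2190 reads gave -0.42 (interval -0.50 to -0.34). Without the intergenic peaks the ratio was -0.60.

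Myl3, the ventricular essential light chain gene, differed less and not in 1 direction. The start peak (chromosome 9, 110592421 to 110592853, gene ENSMUSG00000059741) held 391 and 359 reads (log2 ratio -0.12, interval -0.33 to 0.09). A second peak, over the start of a shorter transcript (110594665 to 110595402), held 418 and 357 (-0.22, interval -0.43 to -0.02). The lowest ratios were those of a pair in intron 1 of a longer transcript, upstream of the main start. The peak at -4054 bp held 155 and 99 reads (-0.62, interval -1.02 to -0.27) and the one at -4512 bp 199 and 137 (-0.52, interval -0.86 to -0.21). The 3 peaks beyond the gene end, which include the peak with most reads of the gene (586 and 566 at 12786 bp, over 958 bp), summed to 1110 and 1085 reads (-0.03, interval -0.15 to 0.09). The 2 in intron 3 of a neighbouring gene, ENSMUSG00000032492, which the table gives to Myl3 by distance to a start, summed to 305 and 324 (0.09, interval -0.14 to 0.32). Among these outlying peaks, those at -5216 bp (62 and 46 reads, -0.39) and 6285 bp (87 and 73 reads, -0.24) were lower in Wtap-CKO, and those at -8839 bp (0.19) and 3999 bp (0.03) were higher. Over all 9 peaks, 2578 and 2361 reads gave -0.12 (interval -0.21 to -0.04).

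The atrial light chain genes had few and weak peaks, with more reads in Wtap-CKO at each. Myl7, the atrial regulatory light chain gene, had a start peak (chromosome 11, 5848640 to 5848839, gene ENSMUSG00000020469) of only 21 reads in Wtapflox/flox and 39 in Wtap-CKO, called in Wtap-CKO alone and under the signal floor. Its log2 ratio was 0.76 with a wide interval (0.10 to 1.74), and its level was higher than 13.6% of all peaks in Wtapflox/flox and 49.2% in Wtap-CKO. A pair of intergenic peaks past the gene end carried most of the reads. The one at 6836 bp held 108 and 142 (0.38, interval 0.03 to 0.77) and the one at 6119 bp 71 and 109 (0.59, interval 0.18 to 1.07). Summed, 200 and 290 reads gave 0.53 (interval 0.27 to 0.81), and 91.9% of genes over the floor had a lower sum.

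Myl4 had its clearest difference inside the gene. The peak in intron 2 of a transcript of the gene (chromosome 11, 104480874 to 104481386, gene ENSMUSG00000061086) held 101 reads in Wtapflox/flox and 152 in Wtap-CKO, a log2 ratio of 0.57 (interval 0.22 to 0.97). The peak over a transcript start (104471005 to 104471228) held 57 and 59 (0.05, interval -0.50 to 0.60), and by the authors' deposited table its log2 ratio was -0.16, so its direction depended on the scaling. The third, at 797 bp from another start, held 66 and 83 (0.31, interval -0.15 to 0.82). Summed, 224 and 294 reads gave 0.39 (interval 0.14 to 0.65), and 86.1% of genes over the floor had a lower sum. Without the intron peak the ratio was 0.20 (interval -0.15 to 0.57), and -0.01 by the authors' RPM, so its direction then depended on the scaling.

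**Figure D3:**
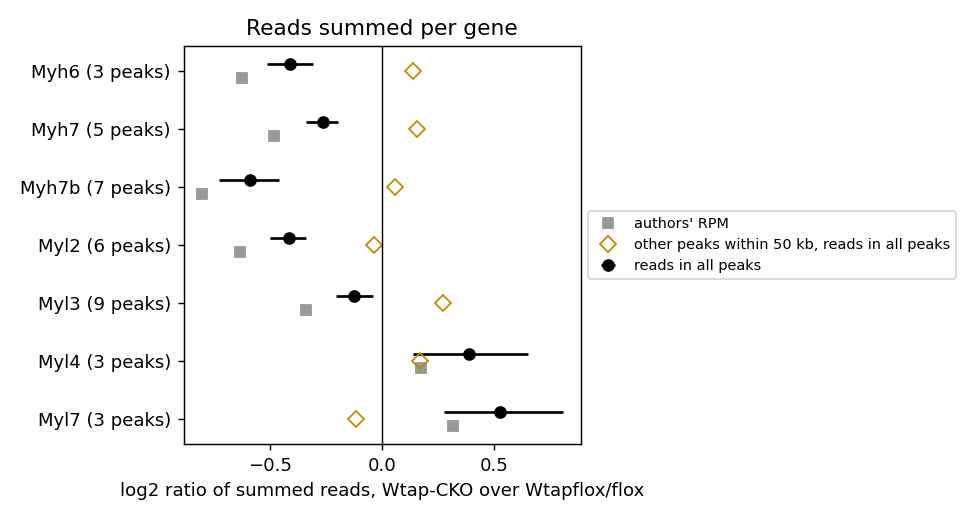
log2 ratio of the reads summed over the peaks of each gene, Wtap-CKO over Wtapflox/flox: black circles scaled to the reads in all peaks, with 95% counting interval; grey squares by the authors' RPM; open diamonds for the peaks of other genes within 50 kb. The 5 heavy and ventricular light chain genes lie left of 0 and Myl4 and Myl7 right of it under both scalings.

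Between the chamber forms, the atrial genes took a larger share of the light chain reads in Wtap-CKO. Myl4 and Myl7 together held 7.14% of these reads in Wtapflox/flox (424 of 5936, interval 6.50 to 7.83) and 11.4% in Wtap-CKO (584 of 5135, interval 10.5 to 12.3), a difference of 4.23 percentage points (Newcombe interval 3.15 to 5.33). Among the regulatory chains alone, Myl7 went from 6.38% (5.55 to 7.29) to 11.7% (10.5 to 13.02) of the reads of Myl7 and Myl2. Among the essential chains alone, Myl4 went from 7.99% (7.02 to 9.06) to 11.1% (9.90 to 12.3) of those of Myl4 and Myl3. The difference was 4.10 points within 1000 bp of a start and 4.30 points farther away. The ventricular genes were far more accessible in both libraries: Myl2 and Myl3 together stood at 74.0 CPM per kb of peak in Wtapflox/flox and 61.3 in Wtap-CKO, and Myl4 and Myl7 at 19.5 and 26.9. How much atrial tissue each pool held is not given in the sources used here, and its part in the result was not tested.

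**Figure D4:**
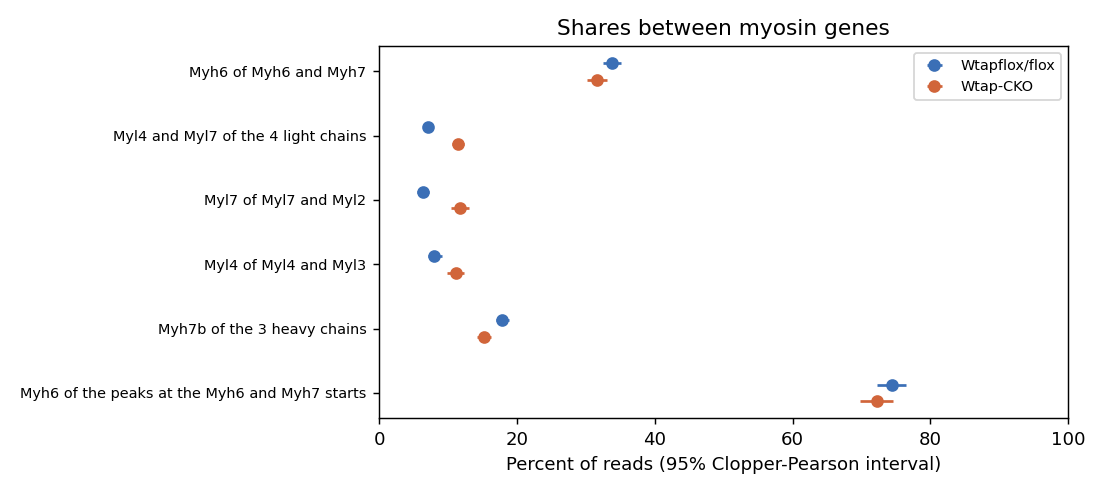
Share of reads taken by the gene or genes named first, in percent of the reads of all genes named, in Wtapflox/flox (blue) and Wtap-CKO (orange), with 95% Clopper-Pearson intervals. The atrial light chains went from 7.14% to 11.4% of light chain reads, and Myh6 from 33.8% to 31.6% of Myh6 and Myh7 reads.

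The order of the genes by level was the same in both libraries. The summed level was highest for Myh6 (126 CPM per kb of peak in Wtapflox/flox and 95.1 in Wtap-CKO), followed by Myl2 (113 and 84.5) and Myh7 (101 and 83.6). Myl3 (53.2 and 48.8) and Myh7b (45.8 and 30.3) lay in the middle, and Myl4 (22.3 and 29.4) and Myl7 (17.1 and 24.8) at the bottom. In Wtap-CKO, Myl2 and Myh7 were close, as were Myh7b and Myl4.

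Summed over each neighbourhood, the reads of neighbouring peaks differed less than those of most of the genes, relative to all peaks. Single neighbouring peaks spread widely in both directions, so higher and lower ones partly cancel in a sum. Their log2 ratios ran from -0.68 to 0.95 around Myh7 and from -0.27 to 1.22 around Myh7b. Around Myl4 they ran from -0.89 to 0.81, and around Myl7 from -0.86 to 0.55. Peaks of other genes within 50 kb had a summed log2 ratio of 0.14 around Myh6 (8 peaks), 0.15 around Myh7 (5), 0.06 around Myh7b (6) and 0.27 around Myl3 (10). Some of the Myh6 and Myh7 neighbours are the same peaks. Around Myl2 the sum was -0.04, yet 11 of its 13 neighbouring peaks were lower, with a median of -0.32, so lower peaks there were not limited to Myl2. Around Myl4 the neighbours were at 0.17 (10 peaks), also above 0, and around Myl7 at -0.12 (10 peaks). By the authors' RPM the sums around Myh6 (-0.08), Myh7 (-0.06), Myh7b (-0.16) and Myl4 (-0.05) were below 0, so their sign depended on the scaling. The sums of Myh6, Myh7 and Myh7b stayed below those of their neighbours and that of Myl4 above.

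Summed over all their peaks, other genes of the myosin machinery showed little difference, while their promoters spread more widely. Among genes whose Gene Ontology terms in the table name a myosin complex, a myosin filament or binding to a myosin chain, 54 were not among the 7, of which 53 were over the floor. Of these, 32 were lower and 21 higher by any amount (all genes over the floor: 48.6% lower and 51.4% higher), with a median of -0.04 against 0.01 over all 25302 genes over the floor. None of the 53 passed 1.5-fold in either direction, against 3.77% of all genes lower and 6.56% higher. Of the 7 genes, Myh7b alone passed it, with a sum 33.6% lower, and 0 of the 7 passed 2-fold (background 0.514% lower and 1.6% higher). These backgrounds were not matched for reads per gene, and a ratio from fewer reads scatters more. By promoter peaks alone, 29 of 43 were lower, with a median of -0.12 against -0.05 over all genes, of whose promoters 57.5% were lower. The lowest was ENSMUSG00000033590, annotated to vesicle transport along actin, with 128 reads in Wtapflox/flox and 65 in Wtap-CKO, a log2 ratio of -0.92 (interval -1.43 to -0.53). The highest was ENSMUSG00000066952, annotated to microvilli, with 299 and 465 (0.63, interval 0.43 to 0.85). For comparison, the promoter ratios of the 7 genes ran from -0.81 (Myh7b) to 0.76 (Myl7, under the floor).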

How the data were processed

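Pooled hearts of 4-day-old mice gave 1 ATAC-seq library per genotype, per the labels' protocols, with paired reads of 150 bases. Per the submitters' processing notes, the build was GRCm39 and the tools included ChIPseeker, HOMER 4.11, MACS2 2.1.0, BWA 0.7.12 and fastp 0.20.0, with no roles stated. How Tn5 offsets, mitochondrial reads and duplicates were handled is not stated there, and duplicates left in would narrow the counting intervals. Raw read counts for 83549 merged peaks were deposited in a single table. The deposited RPM equals the count plus 1 times a constant per library (0.0171 and 0.01475). The deposited fold enrichment (a ratio) was not used. The deposited log2 fold change was recomputed from these RPM values and matched.

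Peaks were assigned to genes by the table's nearest-start annotation. The IDs were tied to symbols by the rule that defined the genes; the files pair no other names, so planned cell type markers and genes of like level were not analysed here. Counts were scaled to the reads in all peaks (CPM), 0.5 was added and log2 ratios taken with Wtapflox/flox as denominator; the floor was 3.92 CPM. Ratio intervals are exact conditional binomial (Clopper-Pearson) at 95%, without the added 0.5. They were checked on simulated Poisson counts, the error they assume, so the check covers the computation and no spread beyond counting. Every peak of the 7 genes is accounted for; the rule named the start peak, the peak with most reads and any past 2-fold, and further peaks were chosen after their values were seen. Motifs were searched in GRCm38.p6 windows, as no sequence of the files' build was used. Genes, lists and rules were chosen with earlier results of these data known. Alternatives were other pseudocounts, scalings, floors, size rules and peak subsets. Python 3.11.15, pandas 2.3.3 and scipy 1.17.1 were used.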

Additional observations from a re-analysis of the deposited data

How the results depend on the processing

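No paired analysis was possible because there is 1 library per genotype, and for the same reason no replicate could be left out. The sums of the 7 genes kept their sign under each alternative pseudocount (0.1 and 2), scaling and peak subset. By the authors' RPM, 4 peaks were 2-fold lower instead of 0; at 1.5-fold 7 were lower and 1 higher. Other floors, the 4-fold rule and both centrings left both counts at 0. The median over the 36 peaks ran from -0.49 (authors' RPM) to -0.21. Reversed single peaks were those of Myl3 at -8839 bp (-0.020) and 3999 bp (-0.18) and of Myl4 at its start (-0.16) by the authors' RPM, and of Myl3 at 12786 bp (0.013) centred on promoter peaks; the counting interval of each spanned 0. The cause was not tested.

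The atrial share of light chain reads was 5.46 points higher in Wtap-CKO without intergenic peaks. It was 2.49 points higher without Myl4, 2.16 without Myl7, 5.71 without Myl2 and 8.43 without Myl3. In these last 4 fewer genes enter the share, so their sizes are not directly comparable with that of the full share. The Myh6 share reversed, to 2.75 points, with the peak between Myh6 and Myh7 given to Myh6, an alternative chosen after seeing the data; its interval spans 0 at the start peaks alone and with peaks called in both libraries (-1.23 points, -3.13 to 0.68). Adding that peak brings Myh6 to -0.11 or Myh7 to -0.12. Depth limits Myl4 and Myl7 most, with 21 to 152 reads per peak and library.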
